A study of Mus musculus with 10 samples.

Results

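The BCL2 family genes described here are 9 genes of the mitochondrial route to cell death, Bcl2, Bcl2l1, Mcl1, Bax, Bak1, Bcl2l11, Bbc3, Bid and Bcl2l13. They were taken by gene symbol from the deposited table of 30984 genes, where each symbol marked 1 row, and all 9 passed the filter on low counts that left 17268 genes for testing. The set was selected on the deposited counts and FPKM values of the burn and NC libraries, with the difference between these groups already known, so that difference is given for each gene as a description and supports nothing. RNA was measured in mouse blood, in 6 libraries labelled burn wound healing, called burn here, and 4 labelled burn wound healing-NC, called NC here. The letters NC are not expanded, and strain, age and sex are not given. The title concerns delayed healing of burns and manganese chloride, but no label says which mice received it. Whole blood is the labelled tissue, while other label fields read lymphocyte and monocytes and the title speaks of PBMCs (peripheral blood mononuclear cells). Nothing says that the libraries came from separate animals, so p-values measure the spread between libraries only, which may be technical.

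Library totals lay between 30677206 and 36379663 counts, in NC 3 and burn 4. Markers of lymphocytes and of myeloid cells were both present. Cd3e of T cells lay between 79.1 and 102 CPM (counts scaled to the TMM-adjusted library size) in burn and between 71.2 and 111 CPM in NC, Ms4a1 of B cells between 337 and 483 CPM in burn and between 343 and 397 CPM in NC, and Lyz2 of monocytes between 2451 and 3896 CPM in burn and between 2788 and 3641 CPM in NC. Red cell RNA was abundant in every library, with Hbb-bs, a beta-globin gene, between 51814 and 79033 CPM in burn and between 52026 and 81060 CPM in NC. In a bulk sample, fewer cells of a type and less RNA per cell cannot be told apart.

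Cells commit to this form of death when the outer membrane of the mitochondrion is pierced and cytochrome c escapes to start caspases. BAX and BAK form the pores. BCL2, BCL-xL (from Bcl2l1) and MCL1 hold them back, and the BH3-only proteins BIM (from Bcl2l11), PUMA (from Bbc3) and BID release that brake. Blood cells differ in the guardian they lean on. Naive lymphocytes depend on BCL2, late red cell precursors and platelets on BCL-xL, and neutrophils on the short-lived MCL1. BCL2L13 shares sequence with the family but is best known as a receptor of the outer membrane that marks mitochondria for removal by autophagy.

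Promoter windows from RefSeq (build GRCm38.p6, reaching from 250 bases before to 50 after a start site) were found for all 9 genes, 14 windows in all. They are shown for the genes on which the results turn, Bax and Bak1, which moved together across libraries, Bcl2l13 and Bid, which are neighbours with opposite differences, and Bcl2l1, which was high where red cell markers were high, short of the adjusted threshold. Each is written 5′ to 3′ on the strand of its gene, with the matches to 4 motifs in capitals, searched on both strands. The first motif was AGATAA, a site read by GATA factors of red cell precursors. The next was GAGGAA, the core read by the myeloid and B cell factor PU.1. The TATA box was searched as TATAAA. The last, the GC box GGGCGG, was added after the windows had been looked at, so its count was not a blind search. No match to one motif overlapped a match to another among the windows printed. The Bax window is chr7:45466849-45467148 on the minus strand, Bak1 chr17:27028578-27028877 on the minus strand, Bcl2l13 chr6:120835980-120836279 on the plus strand, and Bid chr6:120916775-120917074 on the minus strand. The Bcl2l1 window, the farthest downstream of its 3 and the one with a GATA match, is chr2:152828440-152828739 on the minus strand.
Bax: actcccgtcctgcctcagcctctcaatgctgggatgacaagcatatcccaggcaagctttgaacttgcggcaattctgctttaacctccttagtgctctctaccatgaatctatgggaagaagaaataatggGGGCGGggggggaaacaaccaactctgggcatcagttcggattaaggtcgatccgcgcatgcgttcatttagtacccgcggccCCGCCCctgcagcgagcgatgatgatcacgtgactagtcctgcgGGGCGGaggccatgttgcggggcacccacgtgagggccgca
Bak1: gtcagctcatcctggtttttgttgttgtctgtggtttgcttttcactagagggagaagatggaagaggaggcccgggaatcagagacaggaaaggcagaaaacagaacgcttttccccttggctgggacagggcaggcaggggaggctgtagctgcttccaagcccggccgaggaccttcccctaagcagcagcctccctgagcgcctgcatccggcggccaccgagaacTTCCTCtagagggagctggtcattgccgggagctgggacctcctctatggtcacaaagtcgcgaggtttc
Bcl2l13: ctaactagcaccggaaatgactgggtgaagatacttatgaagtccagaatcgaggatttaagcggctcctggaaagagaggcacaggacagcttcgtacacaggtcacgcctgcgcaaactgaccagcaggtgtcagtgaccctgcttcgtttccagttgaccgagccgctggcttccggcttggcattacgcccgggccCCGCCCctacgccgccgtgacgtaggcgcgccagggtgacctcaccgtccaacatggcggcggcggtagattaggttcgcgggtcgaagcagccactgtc
Bid: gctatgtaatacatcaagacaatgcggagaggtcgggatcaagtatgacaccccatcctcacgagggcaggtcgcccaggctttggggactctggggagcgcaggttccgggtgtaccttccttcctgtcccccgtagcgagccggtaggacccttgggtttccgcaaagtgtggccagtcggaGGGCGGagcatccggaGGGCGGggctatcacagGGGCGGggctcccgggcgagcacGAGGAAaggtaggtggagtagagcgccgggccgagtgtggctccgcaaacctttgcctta
Bcl2l1: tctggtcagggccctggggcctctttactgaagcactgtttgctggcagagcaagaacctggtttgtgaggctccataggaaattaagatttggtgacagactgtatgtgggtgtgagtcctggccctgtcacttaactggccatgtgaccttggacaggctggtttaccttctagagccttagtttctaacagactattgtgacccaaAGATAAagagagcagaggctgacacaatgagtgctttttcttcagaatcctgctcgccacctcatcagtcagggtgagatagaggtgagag
The GATA motif was found in 1 of the 14 windows, for Bcl2l1, and 11.2% of all 32851 windows of this length held it. The PU.1 core was found in 3 of 14 windows, for Bcl2, Bak1 and Bid, and 28.3% of all windows held it. The TATA box was found in 0 of the 14 windows, where 13.6% of all windows held it. The GC box was found in 10 of 14 windows, for all genes but Bak1 and Bcl2l1, and 35.7% of all windows held it. The Bbc3 windows at chr7:16310011-16310310 and chr7:16310181-16310480 overlap, so GC boxes in their shared stretch count in both. Bax and Bid had 3 matches to it each and Bcl2l13 had 1. The printed Bcl2l1 window held 1 CpG dinucleotide and the window farthest upstream in that gene held 22. A match is a description of these letters and not a bound site.

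Mcl1 was by far the most abundant member and Bcl2l13 the least. On the deposited FPKM scale, which scales counts by gene length and library total and so lets genes be compared, Mcl1 stood at 267 ± 37 (SD over the 10 libraries) and made up 73.1% ± 1.6 of the summed FPKM of the 9 genes in burn (SD, n = 6) and 73.6% ± 6.0 in NC (SD, n = 4). Bcl2l1 followed at 25.6 ± 8.5 FPKM, Bcl2 at 17.9 ± 3.1, Bax at 11.6 ± 1.6, Bcl2l11 at 10.5 ± 1.2, Bid at 9.36 ± 2.09, Bak1 at 8.76 ± 1.35, Bbc3 at 6.65 ± 1.07 and Bcl2l13 at 5.63 ± 0.75. Among genes tested, Mcl1 lay above 99.2% and Bcl2l13 above 62.4%. Mcl1 exceeded Bcl2l1 in 10 of 10 libraries and Bak1 exceeded Bbc3 in 10 of 10. Bid was higher than Bak1 in 4 of 10 libraries, with a mean log2 ratio of 0.09 ± 0.42 (SD). Bcl2l11 exceeded Bid in 7 of 10 (log2 ratio 0.18 ± 0.33) and Bbc3 exceeded Bcl2l13 in 7 of 10 (0.24 ± 0.32). Bax exceeded Bcl2l11 in 8 of 10 (0.14 ± 0.23) and Bcl2l1 exceeded Bcl2 in 9 of 10 (0.47 ± 0.51), though these mean ratios were also smaller than their SD. Bcl2 exceeded Bax in 9 of 10 (0.62 ± 0.37). Gene-level values do not separate long and short splice forms, which in Bcl2l1 and Mcl1 can encode proteins of opposite effect.

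**Figure D1:**
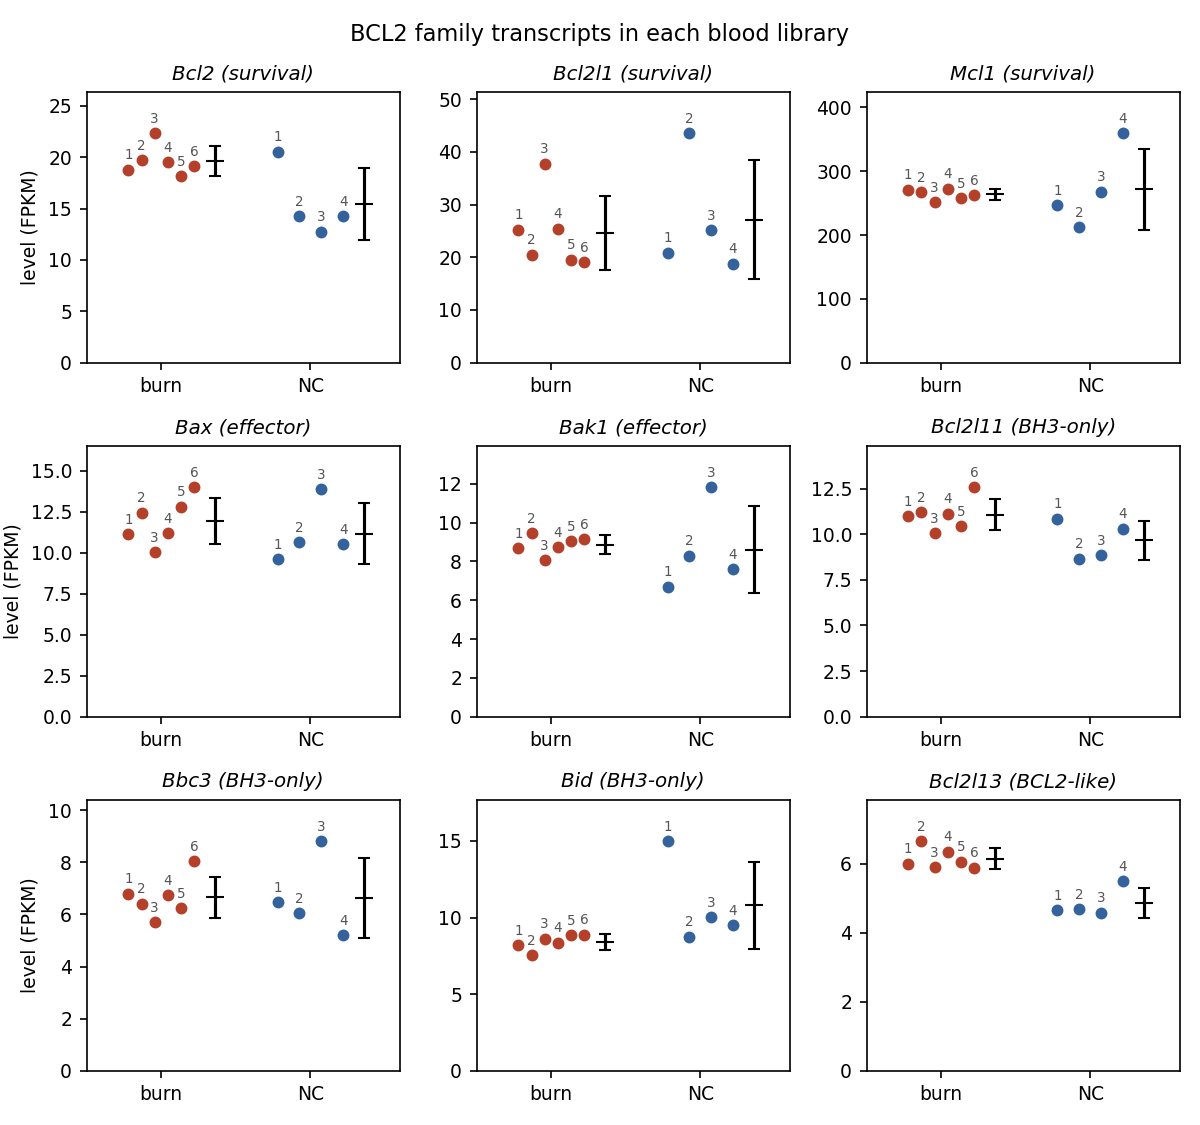
FPKM of each of the 9 genes (vertical axes, each starting at 0 and with its own range) in the 6 burn libraries (left, red) and the 4 NC libraries (right, blue), numbered by replicate, with the mean and SD in black. Bcl2l13 is the gene whose burn points all lie above its NC points, and for Mcl1 the burn points lie between 252 and 273 FPKM while NC points reach from 212 to 360.

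None of the 9 genes passed in the comparison of burn with NC. edgeR's quasi-likelihood test with Benjamini-Hochberg adjustment over 17268 genes called 0 members at an adjusted p under 0.05, where the background is 0% of all genes tested. At an unadjusted p under 0.05 there were 3 members, Bcl2, Bcl2l13 and Bid, beside 11.3% of all genes, and the smallest adjusted p among members was 0.393. DESeq2 and limma-voom called 0 members too; the smallest adjusted p in DESeq2 was 0.0638, for Bcl2l13. By value, 4 members were higher and 5 lower in burn, with a median log2 difference of -0.02, beside 0.02 over all genes tested. The groups did not overlap on the CPM scale for 2 members, Bcl2l13 (above NC, as for 1.34% of genes) and Bid (below NC, as for 0.683% of genes). The members were proposed from this contrast, so nothing is read from those counts.

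**Figure D2:**
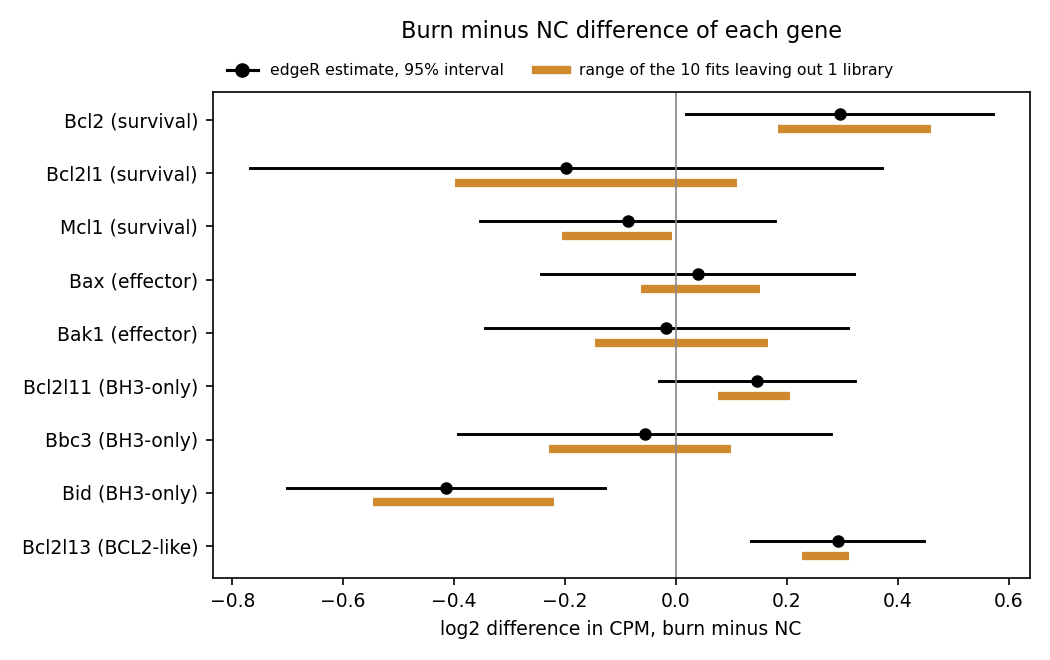
Log2 difference in CPM of burn minus NC for each of the 9 genes (horizontal axis), with the edgeR estimate and 95% interval in black and, in orange, the range of the 10 estimates that each left out 1 library. Bcl2l13, Bcl2 and Bid have intervals that exclude 0, and the orange bars of Bcl2l1, Bax, Bak1 and Bbc3 cross 0.

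Among the survival genes, Bcl2 had the higher value in burn, while Bcl2l1 and Mcl1 had lower values with intervals that include 0. Bcl2 (ENSMUSG00000057329, mm10 chromosome 1, 106538178 to 106714274, minus strand), the guardian of resting lymphocytes, stood at 18.2, 19.3 and 22.3 FPKM in burn (lowest, median and highest) and at 20.5, 14.3, 12.7 and 14.2 FPKM in NC 1 to 4. NC 1 lay inside the burn range, and the other NC libraries lay below every burn library. Burn minus NC was 0.30 on the log2 scale (SE 0.13, 95% interval 0.02 to 0.57). It was 0.46 without NC 1 and 0.19 without NC 4. An antisense gene, D630008O14Rik, shares 558 exonic bases with Bcl2 and had 81 counts over the 10 libraries.

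Bcl2l1 (ENSMUSG00000007659, chromosome 2, 152780668 to 152831728, minus strand) varied most. It stood at 19.05, 22.8 and 37.7 FPKM in burn (lowest, median and highest) and at 20.9, 43.5, 25.2 and 18.8 FPKM in NC 1 to 4. The groups overlapped throughout, with NC 2 and burn 3 far above the rest. The log2 difference was -0.20 (SE 0.26, interval -0.77 to 0.37), and its sign turned to 0.11 without NC 2.

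Mcl1 (ENSMUSG00000038612, chromosome 3, 95658788 to 95663176, plus strand) stood at 252, 265 and 273 FPKM in burn (lowest, median and highest) and at 247, 212, 268 and 360 FPKM in NC 1 to 4. NC libraries lay on both sides of the burn range, with NC 4 above it and NC 1 and NC 2 below it. The log2 difference was -0.09 (SE 0.12, interval -0.35 to 0.18), and it was -0.01 without NC 4. Neutrophil markers were at 1.83 log2 units from the mean of the 10 libraries in NC 4, where Mcl1 was highest, and at 1.98 in NC 1, where Mcl1 was below the burn range. That list (9 of 9 markers measured, 0 with a count of 0 in any library) lay between -1.08 and 0.45 in burn and between -1.53 and 1.98 in NC. Over 10 libraries Mcl1 had r = 0.58 with it (permutation p 0.084, adjusted over 108 gene and list pairs 0.34) and rho = 0.28 (permutation p 0.43, adjusted 0.80). Within burn r was 0.59 (exact p 0.22, n = 6), and without NC 1 and NC 4 it was 0.63. With the list's level as a covariate in edgeR, the log2 difference of Mcl1 was -0.02.

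The pore-forming effectors had differences close to 0, with intervals that reach both ways. Bax (ENSMUSG00000003873, chromosome 7, 45461697 to 45466898, minus strand) stood at 10.03, 11.8 and 14.0 FPKM in burn (lowest, median and highest) and at 9.60, 10.6, 13.9 and 10.5 FPKM in NC 1 to 4, with a log2 difference of 0.04 (SE 0.13, interval -0.24 to 0.32). Bak1 (ENSMUSG00000057789, chromosome 17, 27019810 to 27029009, minus strand) stood at 8.07, 8.90 and 9.47 FPKM in burn and at 6.70, 8.30, 11.8 and 7.60 FPKM in NC 1 to 4, with a log2 difference of -0.02 (SE 0.15, interval -0.34 to 0.31). For both, NC 3 was the highest and NC 1 the lowest NC library, and the burn libraries lay mostly between them. The sign was opposite in 8 of 22 alternative fits for Bax and in 7 of 22 for Bak1, library totals in place of TMM scaling among those for Bak1. The span of Bak1 lies within that of Ggnbp1 on the other strand, which shares 437 exonic bases and had 226 counts over the 10 libraries, and Bax shares 192 exonic bases with the same-strand gene Gm45808.

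By value, the BH3-only genes did not all go the same way in burn against NC. Bcl2l11 (ENSMUSG00000027381, chromosome 2, 128126038 to 128162547, plus strand), whose product BIM removes self-reactive and cytokine-starved lymphocytes, stood at 10.07, 11.06 and 12.6 FPKM in burn (lowest, median and highest) and at 10.9, 8.65, 8.84 and 10.3 FPKM in NC 1 to 4. The groups overlapped, with NC 2 and NC 3 below every burn library. Burn minus NC was 0.15 on the log2 scale (SE 0.08, interval -0.03 to 0.32).

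Bbc3 (ENSMUSG00000002083, chromosome 7, 16308393 to 16318205, plus strand), whose product PUMA is induced by p53, stood at 5.70, 6.57 and 8.05 FPKM in burn (lowest, median and highest) and at 6.47, 6.06, 8.81 and 5.21 FPKM in NC 1 to 4. NC 3 and NC 4 lay on opposite sides of the burn range. The log2 difference was -0.06 (SE 0.15, interval -0.39 to 0.28), with the opposite sign in 4 of 22 alternatives, among them library totals and the FPKM scale.

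Bid (ENSMUSG00000004446, chromosome 6, 120891930 to 120916853, minus strand) carries the signal of death receptors to mitochondria once caspase-8 has cut it, and it had the lower value in burn. It stood at 27.2, 29.6 and 30.7 CPM in burn (lowest, median and highest) and at 54.04, 32.3, 37.8 and 32.7 CPM in NC 1 to 4. On this scale the burn range ended below the NC range, and NC 1 stood far above the others. On the FPKM scale, without TMM factors, the groups met, with burn up to 8.87 and NC down to 8.74 FPKM. The log2 difference was -0.41 (SE 0.13, interval -0.70 to -0.13) and -0.22 without NC 1. NC 1 was also the highest library on the neutrophil, platelet, dendritic cell, eosinophil and basophil, and connective tissue lists. The dendritic list (8 of 8 markers, 0 with a count of 0) lay between -0.40 and 0.04 in burn and between -0.09 and 0.59 in NC. The platelet list (7 of 8 tested, with Gp1bb at 0 in at least 1 library) lay between -0.93 and 0.05 in burn and between -0.74 and 1.25 in NC. The connective list (7 of 9 tested, with Krt14 and Krt5 at 0 in at least 1 library) lay between -1.09 and 0.64 in burn and between 0.76 and 1.58 in NC. The eosinophil and basophil list (8 of 8 tested, with Epx at 0 in at least 1 library) lay between -0.72 and 0.22 in burn and between -0.01 and 1.15 in NC. Within burn, Bid had r = -0.81 with the eosinophil and basophil list (exact p 0.060, n = 6) and -0.56 with the neutrophil list (exact p 0.25). It had -0.01 with the connective list (exact p 0.99), 0.17 with the dendritic list (exact p 0.75) and 0.25 with the platelet list (exact p 0.60). The part of these lists in the Bid values was not tested.

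Bcl2l13 (ENSMUSG00000009112, chromosome 6, 120836212 to 120892842, plus strand), the mitophagy receptor, had the higher value in burn. It stood at 5.89, 6.03 and 6.66 FPKM in burn (lowest, median and highest) and at 4.66, 4.68, 4.58 and 5.51 FPKM in NC 1 to 4. Every burn library lay above every NC library, and NC 4 came closest. Burn minus NC was 0.29 on the log2 scale (SE 0.07, interval 0.14 to 0.45), and it stayed between 0.23 and 0.31 when any 1 library was left out. The dendritic and connective tissue lists, whose ranges are given beside Bid, had lower means in burn, at -0.21 and -0.67, than in NC, at 0.32 and 1.0. The B cell list (8 of 8 markers, 0 with a count of 0) had a mean of 0.13 in burn and -0.19 in NC and lay between -0.19 and 0.38 in burn and between -0.35 and 0.11 in NC, and within burn Bcl2l13 had r = 0.58 with it (exact p 0.24, n = 6). The natural killer, platelet, eosinophil and basophil, neutrophil and plasma cell lists also had lower means in burn (-0.22, -0.21, -0.25, -0.27 and -0.12) than in NC (0.32, 0.32, 0.38, 0.4 and 0.18). T cell, naive T cell, monocyte and red cell lists had higher means in burn. Within burn the largest r of Bcl2l13 was 0.81, with the eosinophil and basophil list (exact p 0.033, n = 6), beside -0.01 with the connective list. The part of these lists in the Bcl2l13 values was not tested.

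Bcl2l13 and Bid are neighbours that converge. Their annotated ends overlap by 913 bases (chromosome 6, 120891930 to 120892842), of which 628 bases are exonic in both genes. Whether the authors counted by strand is not given in the sources used here, so reads from that stretch cannot be assigned to one gene with certainty. The FPKM-implied lengths of 9089 bases for Bcl2l13 and 3550 bases for Bid equalled the full exon unions of GENCODE release M21, so the shared stretch is part of both lengths. The FPKM ratio of Bcl2l13 to Bid was 0.665, 0.710 and 0.882 in burn (lowest, median and highest) and 0.311, 0.536, 0.458 and 0.580 in NC 1 to 4. Within burn the genes ran against each other, with Pearson r = -0.88 (exact permutation p 0.025, two-sided) and Spearman rho = -0.77 (exact p 0.10) over the 6 libraries. Without burn 2 and burn 6 it was r = -0.95 over the remaining libraries. Adjusted over the 36 pairs of members, the p within burn was 0.30, but with 720 pairings a single pair could not have fallen under the threshold, so this says nothing either way. These correlations use log2 CPM, a scale on which the groups do not overlap for either gene, and a pooled value over both groups is therefore not given. Opposed values within burn were not particular to these neighbours. Bcl2l1 and Bax, on separate chromosomes, had r = -0.94 within burn (exact p 0.0056, adjusted over 36 pairs 0.20), and Mcl1 and Bid had -0.82 (exact p 0.053). Other pairs ran together, as Bcl2l11 and Bbc3 did (0.93).

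**Figure D3:**
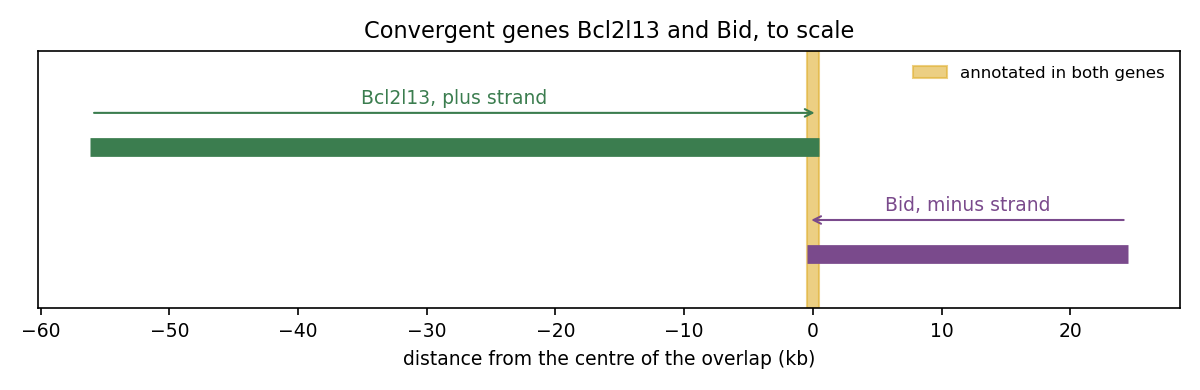
Gene spans of Bcl2l13 (plus strand) and Bid (minus strand) to scale, with distance from the centre of their overlap in kb on the horizontal axis and arrows in the direction of transcription. The yellow band is the stretch of 913 bases annotated in both genes.

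The spread between libraries was smaller in burn than in NC for 8 of the 9 genes, Bcl2l13 being the exception, and for 75.8% of all genes tested. In log2 units, the SD had a median over the 9 genes of 0.09 among burn libraries and 0.29 among NC libraries, beside 0.21 in burn and 0.34 in NC over all genes tested. For Mcl1 the SD was 0.05 among burn libraries and 0.28 among NC libraries. Ratios between survival and death genes also had the larger SD in NC. The FPKM ratio of Bcl2 to Bax was 1.67 ± 0.31 in burn (SD, n = 6) and 1.44 ± 0.51 in NC (SD, n = 4), and that of Mcl1 to Bak1 was 29.8 ± 1.5 in burn and 33.1 ± 11.3 in NC. Summed FPKM of the 3 survival genes was 308 ± 9 in burn and 314 ± 54 in NC. For the 3 BH3-only genes it was 26.1 ± 1.8 in burn and 27.1 ± 3.9 in NC, and for both effectors 20.8 ± 1.8 in burn and 19.8 ± 4.1 in NC. Each of these means differed between the groups by less than the SD within NC.

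**Figure D4:**
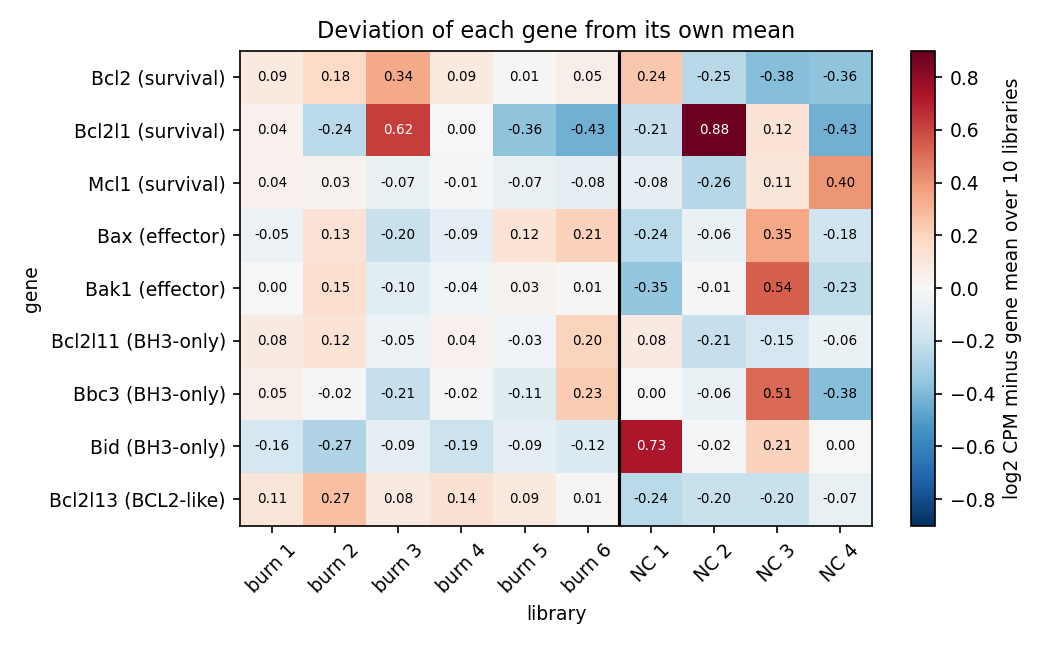
Log2 CPM of each gene (rows) in each library (columns, burn left of the line and NC right of it) minus its mean over the 10 libraries, as colour and number. Outside Bcl2l1, which reaches from -0.43 to 0.62 in burn, the burn values lie between -0.27 and 0.34, and the largest values of all are Bcl2l1 in NC 2 (0.88) and Bid in NC 1 (0.73).

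Bax and Bak1 were high in the same libraries as each other and as T cell markers. The 2 genes had Pearson r = 0.88 (permutation p 0.00015, adjusted over 36 pairs 0.0027) and Spearman rho = 0.95 (permutation p 0.00011, adjusted 0.0040) over 10 libraries. Within burn r was 0.73 (exact p 0.085, n = 6), and without burn 6 and NC 3 it was 0.87. No other pair passed apart from Bcl2l13 with Bid, whose groups are separate on the CPM scale. Against the level of 10 T cell markers, the mean of their log2 CPM after centring each gene, Bak1 had r = 0.93 (permutation p 1e-05, the smallest that the resampling can give, adjusted over 108 gene and list pairs 0.0011) and rho = 0.92 (permutation p 0.00055, adjusted 0.042). Bax had r = 0.88 (permutation p 0.00092, adjusted 0.025) and rho = 0.90 (permutation p 0.00089, adjusted 0.042). Without NC 1 and NC 3, the libraries with the most extreme T cell levels, r was 0.87 for Bak1 and 0.74 for Bax, and 0 of the 108 pairs passed the adjustment when the 2 farthest libraries were left out. Within burn r was 0.79 (exact p 0.035, n = 6) for Bak1 and 0.67 (exact p 0.12, n = 6) for Bax. The T cell list (10 of 10 markers, 0 with a count of 0) lay between -0.17 and 0.23 in burn and between -0.46 and 0.47 in NC. Bbc3 had r = 0.73 with it (permutation p 0.018, adjusted 0.14) and rho = 0.58 (permutation p 0.09, adjusted 0.44), which did not pass. Within burn its r was 0.69, and without NC 1 and NC 3 it was 0.82. T cell markers were not alone, though the r with other lists did not pass. With naive T cell markers r was 0.77 for Bax and 0.72 for Bak1 (permutation p adjusted 0.12 each). With plasma cell markers it was 0.64 and 0.81 (adjusted 0.25 and 0.12), and with neutrophil markers -0.61 and -0.63 (adjusted 0.30 and 0.26).

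Transcript length and ribosomal protein genes followed the same libraries. Bax and Bak1 have exon lengths of 1576 and 2407 bases. The 3454 shortest genes tested, of up to 1618 bases as Bax is, had their highest median deviation in NC 3 (0.17 log2 units) and their lowest in NC 1 (-0.08). The next 3455 genes, of 1618 to 3002 bases as Bak1 is, had 0.14 in NC 3 and -0.04 in NC 1. For 78 ribosomal protein genes it was 0.45 in NC 3 and -0.66 in NC 1. Their part in the Bax and Bak1 values was not tested.

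Bcl2l1 was high where red cell markers were high, short of the threshold after adjustment. BCL-xL is known for keeping late red cell precursors alive. Against 8 red cell markers it had r = 0.65 (permutation p 0.044, adjusted over 108 pairs 0.25) and rho = 0.78 (permutation p 0.011, adjusted 0.15) over 10 libraries. Within burn r was 0.79 (exact p 0.046) and rho 0.94 (exact p 0.017, n = 6), and without NC 1 and NC 2 r was 0.77. NC 1 had the lowest red cell level, -1.36, with Bcl2l1 at 97.2 CPM, while NC 2 had the highest, 0.85, with 208 CPM. The list (8 of 8 markers, 0 with a count of 0) lay between -0.41 and 0.48 in burn and between -1.36 and 0.85 in NC. With platelet markers Bcl2l1 had r = 0.19 over 10 libraries (permutation p 0.58, adjusted 0.87) and -0.11 within burn (exact p 0.74). Bcl2 had r = -0.02 with naive T cell markers (permutation p 0.94, adjusted 0.99) and 0.28 with B cell markers (permutation p 0.42, adjusted 0.69). Besides Bax and Bak1 with T cell markers, the member and list pairs that passed were Bcl2l13 and Bid with dendritic markers. On the CPM scale used here the groups of both genes are separate, so no pooled value is given, and within burn r was -0.36 for Bcl2l13 (exact p 0.44) and 0.17 for Bid (exact p 0.75). Some pairs had a larger r within burn than Bcl2l1 with red cell markers. With 6 naive T cell markers, Bcl2l11 had 0.91 (exact p 0.0028) and Bbc3 0.82 (exact p 0.015). Over 10 libraries these were 0.39 and 0.60 (permutation p 0.26 and 0.063, adjusted 0.54 and 0.30). Bax had -0.88 with red cell markers within burn (exact p 0.033).

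**Figure D5:**
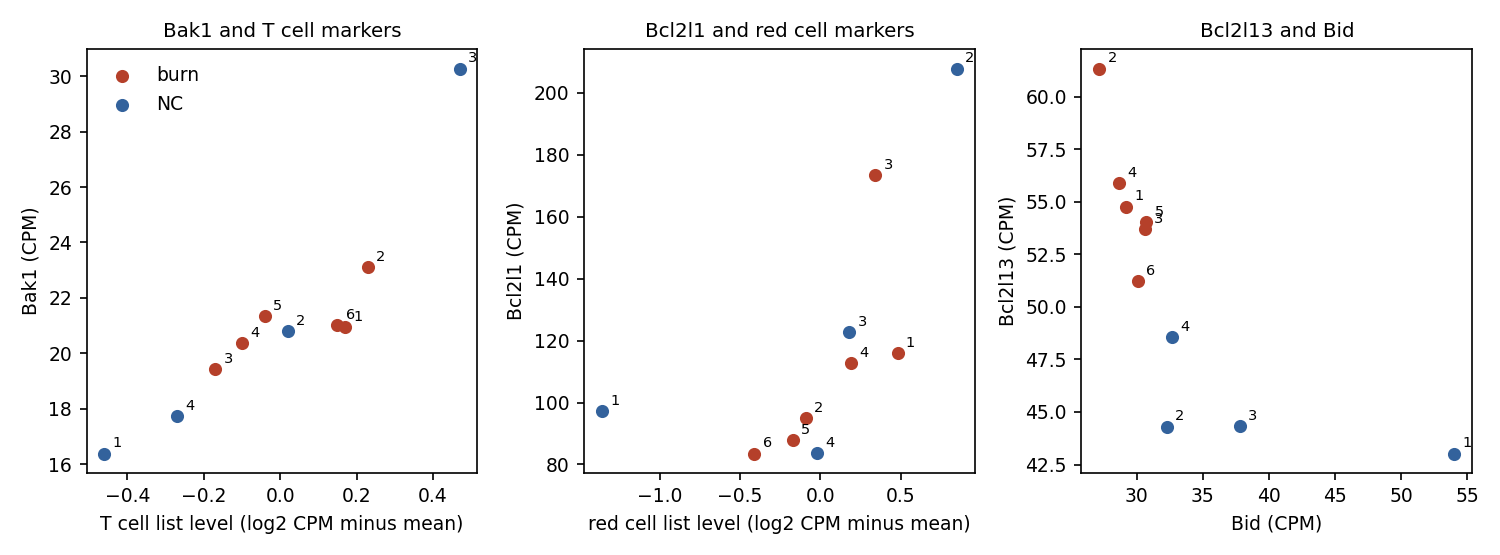
Left, Bak1 (CPM) against the level of 10 T cell markers; middle, Bcl2l1 (CPM) against the level of 8 red cell markers; right, Bcl2l13 against Bid (both CPM). Each point is a library, burn in red and NC in blue, numbered by replicate, and levels are mean log2 CPM after centring each gene; Bak1 climbs with the T cell level to NC 3, and burn and NC occupy separate corners on the right.

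The genes most like each member over the 10 libraries, among 8382 genes with at least 10 CPM, are given by Pearson r as a description, since each is the highest of many. For Bcl2l1 they were Cat, the catalase gene (0.96), Fam214b (0.94) and Ppp1cb (0.93), and within burn their r was 0.95, 0.98 and 0.98. For Bak1 they included Rps10-ps2 (0.98) and Glmp (0.98), and for Bax they were Rpl29 (0.94), Dhps (0.93) and Kti12 (0.93). For Bcl2l11 they were Pde4d (0.97), Ctcf (0.93) and Hspa4 (0.91). Mcl1 was most like Ptpn6 (0.95), Lrrc25 (0.94) and Csrnp1 (0.92), with 0.88, 0.26 and 0.83 within burn. Bcl2 was most like Mettl4 (0.91), Adnp2 (0.88) and Hnrnpu (0.88). Bcl2l13 was most like Sin3a, Ablim1 and Fam168b (0.95 each), with 0.97, 0.61 and 0.85 within burn. Bbc3 was most like Tpt1-ps3 (0.94), Vrk3 (0.93) and Pxylp1 (0.92). For Bid, Sdcbp (0.96), Mid1ip1 (0.95) and Srgn (0.95) led, but within burn their r was 0.05, -0.27 and -0.16.

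The wider death machinery showed 0 genes past the threshold as well. Of 87 further genes listed, 80 were tested. edgeR called 0 of them, with 14 of 80 at an unadjusted p under 0.05, beside 1943 of 17268 genes (11.3%), and 43 had higher and 37 lower values in burn. DESeq2 called 2, beside 85 of all 17268 genes, namely the p53 targets Sesn1 (log2 difference 0.33, adjusted p 0.0053) and Gadd45a (-0.51, adjusted p 0.0050). In edgeR Sesn1 stood at 44.1 ± 2.6 FPKM in burn and 33.4 ± 4.2 in NC and Gadd45a at 15.5 ± 1.5 in burn and 21.0 ± 1.7 in NC, each with an adjusted p of 0.393. The groups did not overlap for 3 of the 80 genes (3.75%, beside 2.03% of all genes tested), Sesn1 above, and Gadd45a and the autophagosome gene Map1lc3b below. Map1lc3b, named because its groups did not overlap on the CPM scale, stood at 27.6 ± 1.5 FPKM in burn and 30.3 ± 1.5 in NC. Among 11 p53 targets tested, 6 had higher and 5 lower values. Bbc3 and Bax, which p53 also induces, had log2 differences of -0.06 and 0.04.

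By role, 3 of the 5 other survival genes were tested, 1 with a higher and 2 with lower values. Bcl2a1d stood at 6.56 ± 1.24 FPKM in burn and 7.17 ± 1.91 in NC, but its near-identical copies make the split of reads uncertain, and Bcl2l2 stood at 1.65 ± 0.39 in burn and 1.46 ± 0.33 in NC. Of the other BH3-only genes, 4 of 5 were tested, 2 with higher and 2 with lower values. Pmaip1, which encodes the MCL1 antagonist NOXA, stood at 15.6 ± 2.9 FPKM in burn and 13.7 ± 3.8 in NC, above Bcl2l11, and Bmf at 7.74 ± 1.07 in burn and 6.21 ± 1.30 in NC. Among further BCL2-like genes, 4 of 5 tested, Bnip3l, a mitophagy receptor that clears mitochondria from maturing red cells, stood at 298 ± 49 FPKM in burn and 315 ± 106 in NC. The remaining pore gene Bok was not tested because its counts were too low.

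Of 11 apoptosome and caspase genes, 5 had higher and 6 lower values in burn. Cycs, which encodes cytochrome c, stood at 11.4 ± 0.6 FPKM in burn and 11.2 ± 1.7 in NC, and Apaf1 at 7.79 ± 0.76 in burn and 7.32 ± 1.10 in NC. Of 5 inhibitor of apoptosis genes, 3 had higher and 2 lower values. Birc3 stood at 39.5 ± 3.0 FPKM in burn and 33.01 ± 8.0 in NC, Birc2 at 20.4 ± 3.3 in burn and 28.8 ± 15.0 in NC, and Xiap at 19.3 ± 1.3 in burn and 18.2 ± 2.6 in NC. Of 9 death receptor genes, 5 had higher and 4 lower values, with Casp8, the protease that cuts BID, at 26.9 ± 2.3 in burn and 24.2 ± 1.2 in NC and the TNF receptor Tnfrsf1a at 27.6 ± 1.8 in burn and 33.7 ± 8.3 in NC. Of 5 genes listed for MCL1 turnover, 4 had higher values and 1, Trib1, lower. The ubiquitin ligase Huwe1 stood at 27.5 ± 2.5 FPKM in burn and 23.02 ± 5.96 in NC.

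Of 7 regulators, 6 had higher values and 1 lower. Foxo1, a transcription factor that can induce Bcl2l11, stood at 26.1 ± 3.0 FPKM in burn and 21.3 ± 1.8 in NC, Myc at 25.8 ± 2.8 in burn and 21.7 ± 3.6 in NC, and Trp53 itself at 19.5 ± 1.5 in burn and 18.03 ± 1.78 in NC. Of 8 mitochondrial partners, 5 had higher and 3 lower values, with Vdac2, which holds BAK at the membrane, at 20.3 ± 0.8 in burn and 17.8 ± 1.8 in NC, and Fis1 at 69.0 ± 7.1 in burn and 69.5 ± 12.9 in NC. Of 15 mitophagy genes tested, 5 had higher and 10 lower values. Gabarap stood at 106 ± 8 FPKM in burn and 120 ± 11 in NC and Sqstm1 at 76.2 ± 7.5 in burn and 72.3 ± 14.9 in NC. None of these lists held a gene past the threshold in edgeR.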

How the data were processed

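mRNA libraries of 10 mouse blood samples were analysed, 6 burn and 4 NC by the treatment label. Per the labels' protocols RNA was extracted with TRIzol and made into paired-end libraries with an mRNA kit. In 1 table the authors deposited counts and FPKM for each gene in each library, per the file headers. The deposited FPKM values equal counts divided by library total and gene length (relative differences of at most 2.8e-13). The submitters' processing notes name mm10 as the build. The sources used here do not give the aligner, the counter or the strand handling. Positions come from GENCODE release M21 on that build, which held 30367 of 30984 identifiers.

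Genes were kept by filterByExpr (minimum count 10), scaled by TMM and tested with edgeR 4.0.16 in R 4.3.3, with no covariate, Benjamini-Hochberg adjustment over all genes and a threshold of 0.05. Log2 CPM for correlations used a prior count of 1, and permutation p-values used 100000 resamples, or all 720 pairings within burn. Alternatives used DESeq2 1.42.0 and limma 3.58.1. The fit was tested on simulated counts. No 2 replicates agreed within sampling noise (lowest chi-square per degree of freedom 15.4 in burn and 75.9 in NC). That check pools the genes tested, and the part of counting error in the spread of single genes was not measured. Bid, for example, had 912 to 1105 counts per burn library, with an SD of 0.07 log2 units among burn libraries.

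The members, the gene lists and the tests were chosen with earlier results of these data known. All 9 members are named. From each wider list at most 4 tested genes with the highest mean FPKM could be named, and for each member the 3 most alike genes above 10 CPM, leaving out predicted genes. Map1lc3b was named after its values were seen, and the length and ribosomal comparisons were added then. Of 4 promoter motifs, the PU.1 core was at first replaced by the GC box after the promoter windows had been looked at; both are reported. A list of 6 histone genes matched 0 symbols and gave no value. Some genes that the naming rule selects are not reported here.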

Additional observations from a re-analysis of the deposited data

Results flagged for a closer look

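Of 18 sets of values examined (9 genes in 2 groups), 1 held a library far from the others. Bcl2l1 stood at 173 CPM in burn 3, while the other burn libraries lay between 83.5 and 116 CPM, a gap of 0.638 of the whole range against a critical value of 0.625. Chance alone marks about 5% of such sets. Burn 3 did not have the highest red cell marker level of its group, at 0.34 against 0.48 in burn 1.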

How the results depend on the processing

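Calls over all genes stayed at 0 in edgeR under other scalings, filters and marker covariates, and in limma-voom. limma on log2(FPKM + 1) and on log2(FPKM + 0.1) called 1 gene each, higher in burn and outside the wider apoptosis lists. DESeq2 called 85 genes (15 higher, 70 lower in burn), 2 of them in the wider apoptosis lists. Leaving out 1 library gave 0 to 10 genes, 10 without burn 1 and 3 without NC 4, all lower in burn, and 0 in the wider lists each time. The 4 correlations that passed fell to 0 within burn, to 0 without the 2 libraries farthest from the median, and to 1 on log2(FPKM + 1). Within burn, with 720 pairings, a single pair could not have passed over 108 tests. Of 22 alternatives per gene, the sign of the difference held in all for Bcl2, Bcl2l11, Bcl2l13, Mcl1 and Bid, and turned in 2 for Bcl2l1, 4 for Bbc3, 7 for Bak1 and 8 for Bax. With the replicate number as a block, where burn 5 and 6 have no partner, 0 genes were called. The labels share only a number; same-numbered libraries had deviations correlated at -0.05, -0.04, -0.07 and 0.34, and burn 4 alone matched its own number best. The lowest count behind any value of the 9 genes was 377, for Bbc3 in NC 4.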
